A study of Mus musculus with 70 samples.

Results

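The 33 genes described here are transcriptional targets of p53, together with Trp53, the gene of p53 itself, and they were followed in mouse lung across 13 chemicals. Members were found by gene symbol among the probe sets of an Affymetrix mouse genome array. Where several probe sets read a gene, the brightest on average over the 70 arrays stood for it. Of the 33 genes, 31 had a probe set with 1 gene symbol, out of 18193 such genes on the array. Bax and Trp53 had none, so their expression is not analysed here. Tnfrsf10b, a death receptor gene, and Eda2r lay below the filter on dim genes, with single arrays between 3.59 and 5.03 on the log2 scale. This left 29 members among the 12735 genes tested.

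Each array measured the right lung lobe of 1 female B6C3F1 mouse that was killed at 18 weeks of age after 13 weeks of exposure. Chemicals were mixed into feed on 7 days a week or given by gavage at 5 ml/kg on 5 days a week, and the first number of the animal identifier divides the study into set 1 and set 2. The series classes 7 chemicals as positive and 6 as negative lung carcinogens. The positive chemicals were 1,5-naphthalenediamine (feed, 2000 ppm, set 1, n = 3), 2,3-benzofuran (corn oil gavage, 240 mg/kg, set 1, n = 3), the brominated diol 2,2-bis(bromomethyl)-1,3-propanediol (feed, 1250 ppm), N-methylolacrylamide (water gavage, 50 mg/kg), 1,2-dibromoethane (corn oil gavage, 62 mg/kg), coumarin (corn oil gavage, 200 mg/kg) and benzene (corn oil gavage, 100 mg/kg). The negative chemicals were N-(1-naphthyl)ethylenediamine dihydrochloride (feed, 2000 ppm, set 1, n = 3), pentachloronitrobenzene (feed, 8187 ppm, set 1, n = 3), 4-nitroanthranilic acid (feed, 10000 ppm), 2-chloromethylpyridine hydrochloride (water gavage, 250 mg/kg), diazinon (feed, 200 ppm) and malathion (feed, 16000 ppm). Chemicals with no set named here were in set 2 with 4 animals each. Controls were 3 feed and 3 corn oil animals in set 1, and 4 feed, 8 corn oil and 4 water animals in set 2. Chemicals given in the same vehicle and set share their controls. Surfactant and club cell transcripts marked the tissue as lung on every array, with Sftpc between 14.23 and 14.45 and Scgb1a1 between 13.95 and 14.37 on the log2 scale. In whole tissue, fewer cells of a type and less RNA per cell cannot be told apart.

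p53 is a transcription factor that is kept scarce by the ubiquitin ligase Mdm2 and that accumulates when DNA is damaged. It then switches on genes that stop the cell cycle (Cdkn1a, which encodes p21), genes that end the response (Mdm2, Ppm1d), genes of programmed cell death (Bbc3, Pmaip1, Fas), genes that temper growth signalling (Phlda3, Sesn1, Sesn2) and genes of DNA repair (Ddb2, Xpc). Most of these genes also answer to other signals, such as glucocorticoids, nutrient supply and the time of day, so a change in any single one of them is not specific to p53.

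For no chemical were more than 7 of the 29 tested members called. A member was called when limma's adjusted p over all 12735 genes was under 0.05, and that happened in 15 of 377 gene and chemical pairs. The 15 calls fell on 12 genes and 6 chemicals, and 17 members were called for no chemical. By chemical, from 0% to 24.1% of the tested members were called, and from 0% to 21.8% of all genes. N-methylolacrylamide had 7 members called, 5 higher and 2 lower, against 21.8% of all genes tested (12.7% higher and 9.07% lower). Benzene had 3 higher, Phlda3, Ddit4l and Zmat3, against 0.0942% of all genes (0.0864% higher and 0.00785% lower), or 12 genes in all. 1,2-Dibromoethane had 1 higher and 1 lower, against 4.59% of all genes (2.08% higher and 2.5% lower). Coumarin had 1 higher, against 4.68% of all genes (3.26% higher and 1.42% lower). 1,5-Naphthalenediamine had 1 higher, against 1.2% of all genes (1.02% higher and 0.181% lower). Malathion had 1 higher, against 2.66% of all genes (1.26% higher and 1.4% lower). 2,3-Benzofuran had 0 members called where 5.03% of all genes were called (4.4% higher and 0.628% lower). For it, 4 of 29 members and 18.6% of all genes had an unadjusted p under 0.05. The other 6 chemicals had 0 members called, with 0% to 0.00785% of all genes called. They had from 0 to 5 members at an unadjusted p under 0.05, and from 1.72% to 12.9% of all genes.

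**Figure D1:**
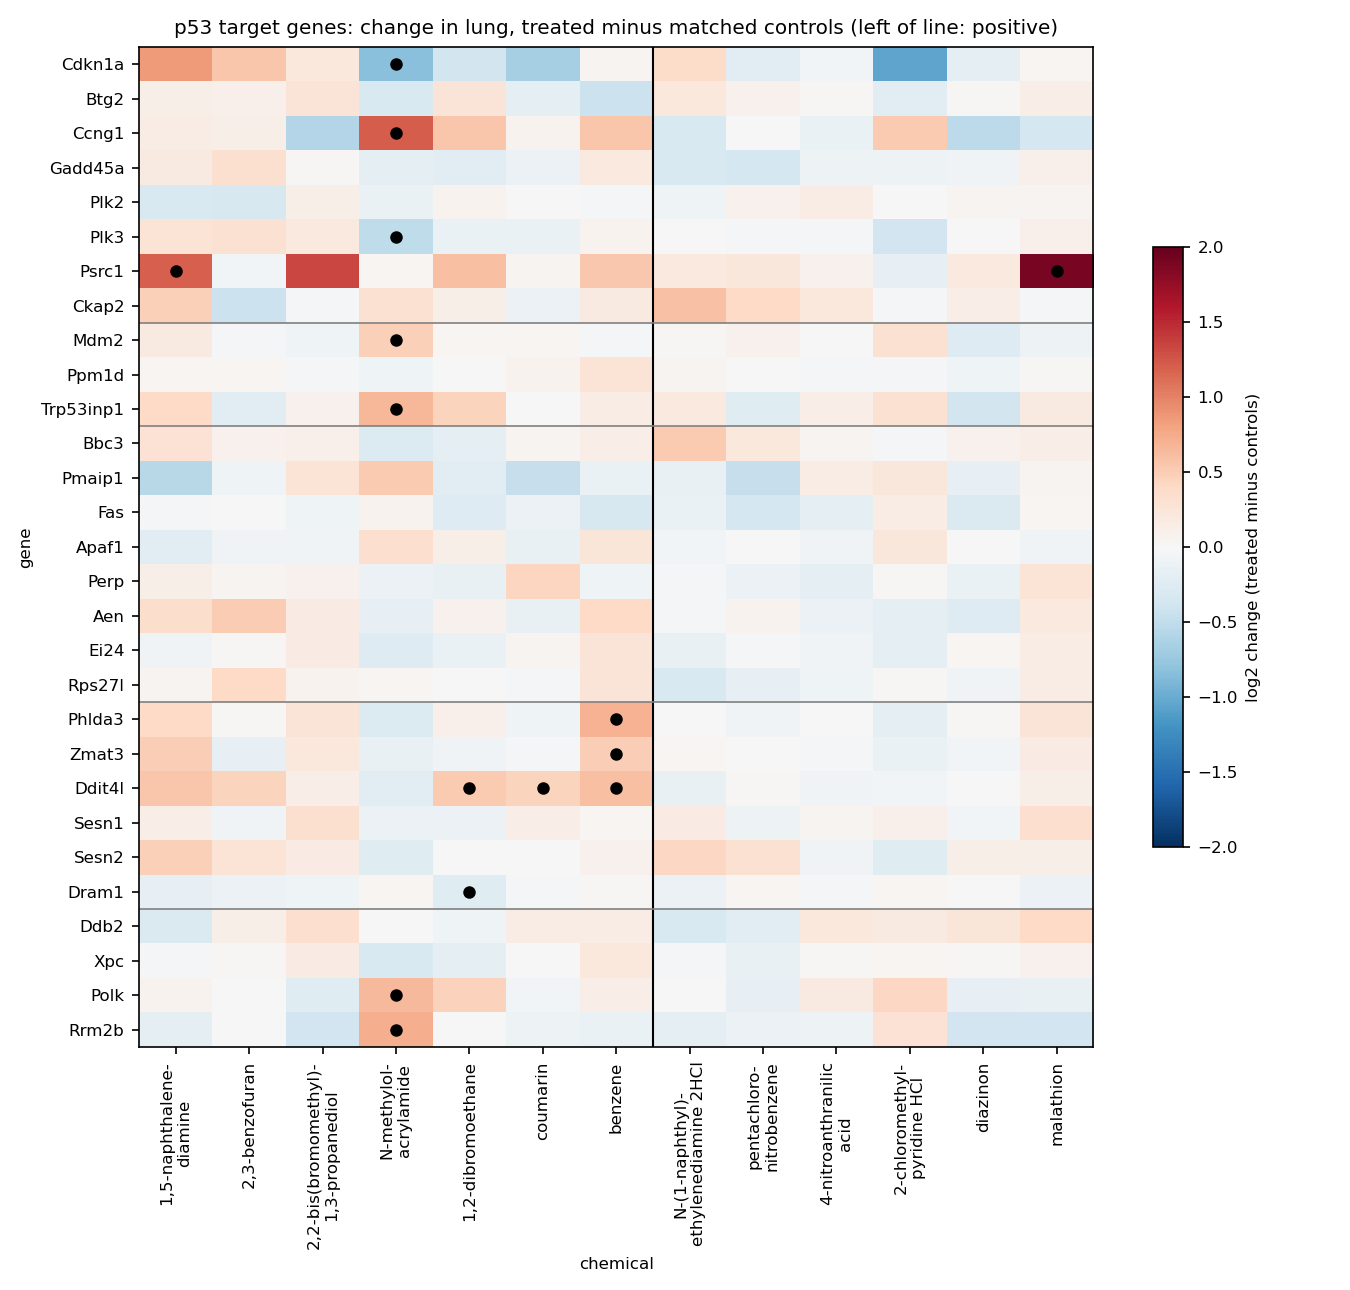
Log2 change of the 29 tested p53 target genes (rows, grouped by role) in treated lungs minus matched controls for 13 chemicals (columns, positive chemicals left of the vertical line). Black dots mark the 15 calls, 7 of them for N-methylolacrylamide and 3 for benzene, and Psrc1 stands out at 1.90 for malathion.

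The median change of the 29 members against their controls was 0.15 for benzene, where the median of all genes was 0.05, and 22 of 29 members lay above 0, as did 64.3% of all genes. It was 0.13 for 1,5-naphthalenediamine (all genes -0.03), 0.12 for 2,2-bis(bromomethyl)-1,3-propanediol (all genes 0.02) and 0.10 for malathion (all genes 0.01), where 22 of 29 members and 52.7% of all genes lay above 0. For N-methylolacrylamide it was -0.11, with all genes at -0.10. The other 8 medians lay between -0.05 and 0.02. These medians describe the list and carry no test.

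Sequence near the start of the members was searched for the motif that p53 recognises. RefSeq promoter windows of mouse build GRCm38.p6, from 250 bases before to 50 bases after the start, were on hand for 25 of the 33 members. The motif is the 10-base p53 consensus element, and it reads the same on both strands. It stood in at least 1 window of 14 of the 25 members (56.0%), against 9.55% of all 27025 genes with a window and 8.36% of all 32851 windows. The 14 include Bax and Trp53, whose expression is not analysed here. A pair of elements at most 13 bases apart, the complete site to which p53 binds, stood in 0.0731% of all windows, 24 in number, and Cdkn1a was the only member with one. A match describes the letters of a window and not binding in these lungs. The windows below belong to the members called for N-methylolacrylamide, the chemical with most members called, with the element in capitals. Those of Ddit4l and Phlda3 were added after their values were seen, since both were called for benzene.
Ccng1 (chr11:40755237-40755536, minus strand): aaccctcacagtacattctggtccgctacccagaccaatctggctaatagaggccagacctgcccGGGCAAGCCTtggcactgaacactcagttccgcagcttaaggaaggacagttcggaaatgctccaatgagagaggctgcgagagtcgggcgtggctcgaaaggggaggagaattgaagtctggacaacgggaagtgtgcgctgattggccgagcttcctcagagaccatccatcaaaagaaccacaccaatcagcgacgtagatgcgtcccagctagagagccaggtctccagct
Plk3 (chr4:117133914-117134213, minus strand): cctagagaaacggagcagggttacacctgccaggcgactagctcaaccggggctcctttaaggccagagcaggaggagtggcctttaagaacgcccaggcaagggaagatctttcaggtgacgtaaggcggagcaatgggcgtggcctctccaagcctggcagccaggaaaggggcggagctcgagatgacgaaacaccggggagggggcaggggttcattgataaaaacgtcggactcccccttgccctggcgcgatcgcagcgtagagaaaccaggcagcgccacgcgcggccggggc
Mdm2 (chr10:117710709-117711008, minus strand): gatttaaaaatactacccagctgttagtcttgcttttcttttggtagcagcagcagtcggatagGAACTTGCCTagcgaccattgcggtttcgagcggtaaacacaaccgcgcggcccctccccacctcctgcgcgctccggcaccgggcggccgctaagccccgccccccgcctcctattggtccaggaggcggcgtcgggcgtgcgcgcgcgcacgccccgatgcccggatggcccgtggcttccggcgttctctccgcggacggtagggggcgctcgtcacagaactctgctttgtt
Polk (chr13:96519138-96519437, minus strand): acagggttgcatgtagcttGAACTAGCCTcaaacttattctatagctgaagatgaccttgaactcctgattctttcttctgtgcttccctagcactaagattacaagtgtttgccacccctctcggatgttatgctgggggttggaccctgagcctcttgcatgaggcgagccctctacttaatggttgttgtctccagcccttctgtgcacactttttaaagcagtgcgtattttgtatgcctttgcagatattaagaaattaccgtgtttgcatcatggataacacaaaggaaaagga
Cdkn1a (chr17:29090729-29091028, plus strand): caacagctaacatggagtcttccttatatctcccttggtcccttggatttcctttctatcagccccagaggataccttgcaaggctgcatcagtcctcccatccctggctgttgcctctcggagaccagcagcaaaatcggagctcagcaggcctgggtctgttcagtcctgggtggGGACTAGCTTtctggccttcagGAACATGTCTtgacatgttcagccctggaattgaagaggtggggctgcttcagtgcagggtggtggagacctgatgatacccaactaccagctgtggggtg
Ddit4l (chr3:137623422-137623721, plus strand): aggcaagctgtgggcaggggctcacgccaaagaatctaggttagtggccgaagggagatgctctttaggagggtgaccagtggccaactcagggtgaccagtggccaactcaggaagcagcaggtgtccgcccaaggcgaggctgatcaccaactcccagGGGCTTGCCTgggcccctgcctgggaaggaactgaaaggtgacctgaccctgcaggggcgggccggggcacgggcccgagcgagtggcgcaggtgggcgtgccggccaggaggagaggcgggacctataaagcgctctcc
Phlda3 (chr1:135765835-135766134, plus strand): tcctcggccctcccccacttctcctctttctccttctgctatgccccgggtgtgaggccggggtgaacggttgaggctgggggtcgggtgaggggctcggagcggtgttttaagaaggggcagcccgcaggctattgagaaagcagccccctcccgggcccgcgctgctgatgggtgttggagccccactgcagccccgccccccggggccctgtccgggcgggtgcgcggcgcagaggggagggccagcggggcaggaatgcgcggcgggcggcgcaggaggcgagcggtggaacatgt
Counted from the start of the gene, the element begins at position -185 in Ccng1 (GGGCAAGCCT), at -186 in Mdm2 (GAACTTGCCT), at -90 in Ddit4l (GGGCTTGCCT) and at -231 in the Polk window shown (GAACTAGCCT). In the Cdkn1a window shown, that of its upstream start, elements begin at -73 and at -51. The windows of Plk3 and Phlda3, the second start of Cdkn1a and the second start of Polk hold no match. No window was on hand for Rrm2b, Trp53inp1 and Zmat3.

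Among the genes of cell cycle arrest, Cdkn1a was called higher for no chemical in the main fit. Its protein p21 blocks cyclin-dependent kinases, and it is the target most often used as a readout of p53. Treated animals had 10.38, 10.56 and 10.54 on the log2 scale for 1,5-naphthalenediamine, against 9.59, 9.52 and 9.83 in feed controls of set 1. All 3 treated animals lay above all 3 controls. The change of 0.85 ± 0.35 (SE) had an adjusted p of 0.375 in the main fit. That rise was called under 2 of 16 alternatives. Over the 16 the change ran from 0.78 to 0.98 and the adjusted p from 0.00345 to 0.821, so the missing call depends on the fit. Animals given 2,3-benzofuran had 9.51, 9.59 and 10.17, against 9.58, 9.10 and 8.94 in corn oil controls of set 1, and these groups overlap. Animals fed N-(1-naphthyl)ethylenediamine dihydrochloride had 10.25, 9.53 and 10.23, and those fed pentachloronitrobenzene 9.64, 9.32 and 9.33, against the same feed controls. Both of these groups overlap the controls.

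In set 2 the Cdkn1a levels spread widely within groups. It had 10.57, 10.43, 10.22 and 10.82 in benzene lungs, 9.98, 9.92, 9.62 and 9.68 in coumarin lungs and 10.78, 10.10, 10.19 and 9.28 in 1,2-dibromoethane lungs, against 9.36 to 11.24 with a median of 10.57 in corn oil controls. Only the last 1,2-dibromoethane animal lay outside the control range, just under the lowest control. Mice fed 2,2-bis(bromomethyl)-1,3-propanediol had 10.90, 10.51, 10.23 and 10.67 and mice fed 4-nitroanthranilic acid had 10.44, 10.21, 10.39 and 10.23, against 9.97, 10.53, 10.64 and 10.34 in feed controls. Against the same controls, mice fed diazinon had 10.23, 10.39, 10.90 and 9.26 and mice fed malathion had 9.55, 10.32, 10.76 and 10.99. All 4 groups overlapped the controls. The diazinon and malathion groups each reached both above and below all feed controls.

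The one change of Cdkn1a called in the main fit was a fall. It had 10.01, 10.30, 9.34 and 9.72 in N-methylolacrylamide lungs, against 10.37, 11.49, 9.91 and 10.92 in water controls. Treated animals lay low, but 2 of the 4 overlapped the controls. Cdkn1a fell by 0.83 on the log2 scale (SE 0.31, adjusted p = 0.0443), and the call was lost when any 1 of 5 of the 8 animals was left out. The lungs of 2-chloromethylpyridine hydrochloride, measured against the same controls, had 10.13, 9.70, 9.60 and 9.06. Their change of -1.05 ± 0.31 (SE) had an adjusted p of 0.316, and 3 of 4 animals lay below all controls.

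Psrc1 showed the largest change of any member for any chemical. It encodes a proline- and serine-rich coiled-coil protein of the mitotic spindle and was first described as a p53-regulated gene. Lungs of mice fed malathion had 5.39, 7.42, 7.39 and 7.93, against 4.86, 5.44, 4.94 and 5.29 in feed controls. The last 3 malathion animals lay about 2 log2 units above every control, and the first lay within the control range. Psrc1 rose 3.73-fold (log2 change 1.90 ± 0.27 SE, adjusted p = 1.37e-05). It kept its call under the 17 alternatives in which it was tested, with values from 1.60 to 2.45. It was too dim to be tested with the 50th percentile filter or with the mean over its probe sets. Mice fed 1,5-naphthalenediamine had 6.00, 6.12 and 5.89, against 4.73, 4.92 and 4.77 in feed controls of set 1, with no overlap. That rise was 2.30-fold (log2 change 1.20 ± 0.31 SE, adjusted p = 0.0255), and the call was lost, at nearly the same size, when any 1 of the 6 animals was left out (adjusted p from 0.0613 to 0.157).

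Mice fed 2,2-bis(bromomethyl)-1,3-propanediol had Psrc1 levels of 7.17, 5.47, 6.13 and 7.12, against the same set 2 feed controls. All 4 lay above all controls, and the change of 1.34 ± 0.27 (SE) had an adjusted p of 0.0543. It was called without the animal at 5.47 (1.67, adjusted p = 0.000348). Diazinon, an organophosphorus insecticide like malathion, was fed at 200 ppm where malathion was fed at 16000 ppm. Diazinon lungs had Psrc1 at 5.19, 5.23, 5.42 and 5.45, next to the feed controls. A second Psrc1 probe set changed by 0.85 for malathion (adjusted p = 0.00201 over all probe sets), by 0.68 for 1,5-naphthalenediamine (adjusted p = 0.0673) and by 0.44 for 2,2-bis(bromomethyl)-1,3-propanediol (adjusted p = 0.350).

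Labels give the amount of RNA handed to the array core as 10 or 15 ug, and feed groups of set 2 mix the amounts. Within 15 ug Psrc1 averaged 6.91 in 3 malathion animals and 5.36 in 2 feed controls. Within 10 ug it averaged 7.42 in 1 malathion animal, 6.47 in 4 animals fed 2,2-bis(bromomethyl)-1,3-propanediol and 4.90 in 2 feed controls. Leukocyte markers were examined beside Psrc1. The mean level over 5 neutrophil markers ran from 8.16 to 9.55 in malathion animals, from 7.99 to 8.94 in animals fed 2,2-bis(bromomethyl)-1,3-propanediol and from 7.22 to 7.92 in feed controls. Of the 4 tested neutrophil markers, 0 were called for either chemical. Of all genes, 2.66% were called for malathion and 0% for 2,2-bis(bromomethyl)-1,3-propanediol, so the latter count of 0 says nothing about these markers. The mean over 6 B and plasma cell markers ran from 9.32 to 10.15 for 1,5-naphthalenediamine, against 7.40 to 8.34 in its feed controls. Of these 6 markers 3 were called higher, where 1.02% of all genes were. Of 5 club cell markers, 3 were called lower for malathion, where 1.4% of all genes were. Their mean levels ran from 11.96 to 12.67 in malathion animals and from 12.16 to 13.33 in feed controls. The part of these cells in the Psrc1 result was not tested.

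**Figure D2:**
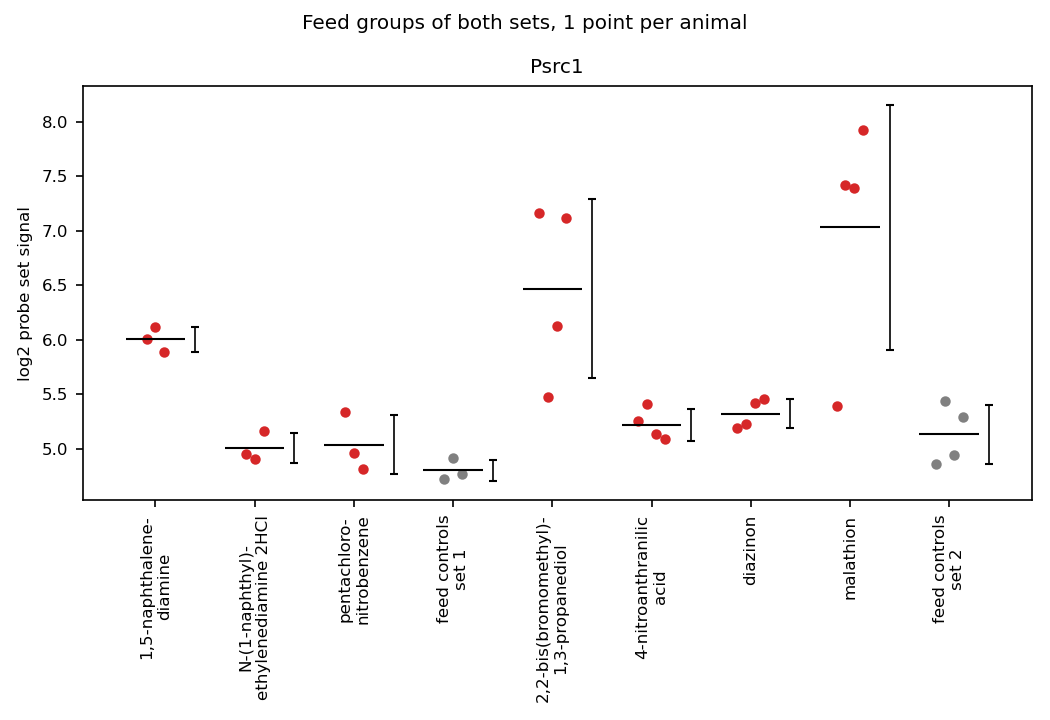
Psrc1 signal (log2, vertical axis) in the feed groups of set 1 (left 4 groups) and set 2 (right 5 groups), 1 point per animal, treated groups in red and controls in grey, with horizontal lines at group means and bars of 1 SD. Of the 4 malathion animals, 3 lie above 7 and 1 lies at 5.39 with the controls.

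Lungs of mice given N-methylolacrylamide had higher Ccng1, Rrm2b, Mdm2, Polk and Trp53inp1 and lower Plk3 and Cdkn1a than water controls. These span cell cycle arrest, feedback on p53 and DNA repair. They are 24.1% of the tested members, near the 21.8% of all genes called for this chemical. The water controls themselves stood apart from the other controls, as described with the control groups, and the 7 calls have to be read with that. Ccng1 encodes cyclin G1, which recruits a phosphatase to Mdm2. It had 8.37, 9.08, 9.00 and 8.52 in treated lungs, against 7.32, 6.98, 7.37 and 8.48 in water controls. The water control at 8.48 overlapped the lowest treated animal. Ccng1 rose 2.31-fold (log2 change 1.21 ± 0.25 SE, adjusted p = 0.00231). One of its other probe sets changed by 1.70 (adjusted p = 0.00306) and another by 0.57 (adjusted p = 0.0715).

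Plk3, a polo-like kinase of the stress response, had 7.02, 6.80, 6.73 and 6.81 in N-methylolacrylamide lungs, against 7.35, 7.64, 7.17 and 7.25 in water controls. The groups did not overlap. Plk3 fell by 0.51 on the log2 scale (SE 0.13, adjusted p = 0.0044).

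Mdm2 is the ubiquitin ligase that degrades p53 and is itself induced by it. It had 8.51, 8.64, 8.72 and 8.25 in N-methylolacrylamide lungs, against 7.93, 7.95, 7.97 and 8.39 in water controls. The highest water control lay above the lowest treated animal. Mdm2 rose 1.39-fold (log2 change 0.47 ± 0.14 SE, adjusted p = 0.0128). Trp53inp1, a nuclear protein that promotes p53 phosphorylation, had 8.65, 9.40, 9.37 and 9.03 in treated lungs, against 7.91, 8.01, 8.40 and 9.46 in water controls. One water control was higher than all treated animals. Its rise of 0.66 ± 0.25 (SE, adjusted p = 0.0495) was not seen by a second probe set, which changed by -0.07 (adjusted p = 0.853).

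Polk encodes DNA polymerase kappa, which copies past bulky adducts. It had 6.35, 6.79, 6.76 and 6.53 in N-methylolacrylamide lungs, against 5.98, 5.65, 6.05 and 6.14 in water controls, with no overlap. Polk rose 1.57-fold (log2 change 0.65 ± 0.19 SE, adjusted p = 0.0137). Rrm2b encodes the p53-inducible subunit of ribonucleotide reductase and supplies nucleotides for repair. It had 7.32, 7.98, 7.88 and 7.43 in treated lungs, against 6.88, 6.64, 7.01 and 7.20 in water controls, again with no overlap. Rrm2b rose 1.65-fold (log2 change 0.72 ± 0.18 SE, adjusted p = 0.00451), and a second probe set changed by 1.26 (adjusted p = 0.00923).

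Against the controls of all 3 vehicles of set 2, an alternative chosen after the data were seen, 0 of the 7 members were called for N-methylolacrylamide. Of all 12735 genes, 6 were called there. The Ccng1 change then was 0.33 (adjusted p = 0.437), Rrm2b 0.17, Mdm2 0.13, Polk 0.24, Trp53inp1 0.09, Plk3 -0.29 and Cdkn1a -0.66. Without 1 water control, the animal with the highest Plk3 and Cdkn1a levels, only 1 member was called, where 416 of all 12735 genes were. Without the water control with the highest Mdm2 level 10 members were called, where 4203 of all genes were. The count of members thus moved with that of all genes. Of the 8 single omissions, 6 ended the call of Trp53inp1, 3 that of Mdm2, 3 that of Polk, and 1 each those of Plk3 and Rrm2b. The negative chemical given in the same water vehicle, 2-chloromethylpyridine hydrochloride, had changes of 0.52 for Ccng1, 0.41 for Polk, 0.30 for Mdm2 and -0.38 for Plk3, with adjusted p from 0.316 to 0.371. Cell type markers were examined for N-methylolacrylamide too, where 12.7% of all genes were called higher. Of these markers, 2 of 7 endothelial, 1 of 6 fibroblast, 1 of 6 alveolar type I and 1 of 5 alveolar macrophage markers were called higher. Mean levels over the fibroblast markers ran from 9.91 to 10.46 in treated lungs and from 9.68 to 10.00 in water controls, and those over the endothelial markers from 10.69 to 10.80 in treated lungs and from 10.59 to 10.76 in water controls. Their part in the result was not tested. N-methylolacrylamide minus 2-chloromethylpyridine hydrochloride gave 0 called members and 0% of all genes called. An unadjusted p under 0.05 was found for 3 members and for 1407 genes, 11.0% of all genes. The lowest adjusted p of any member was 0.403. The difference for Ccng1 was 0.69 (95% interval 0.19 to 1.19) and for Rrm2b 0.44 (0.08 to 0.79). These intervals are not adjusted for the number of genes, and doses were 50 and 250 mg/kg.

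**Figure D3:**
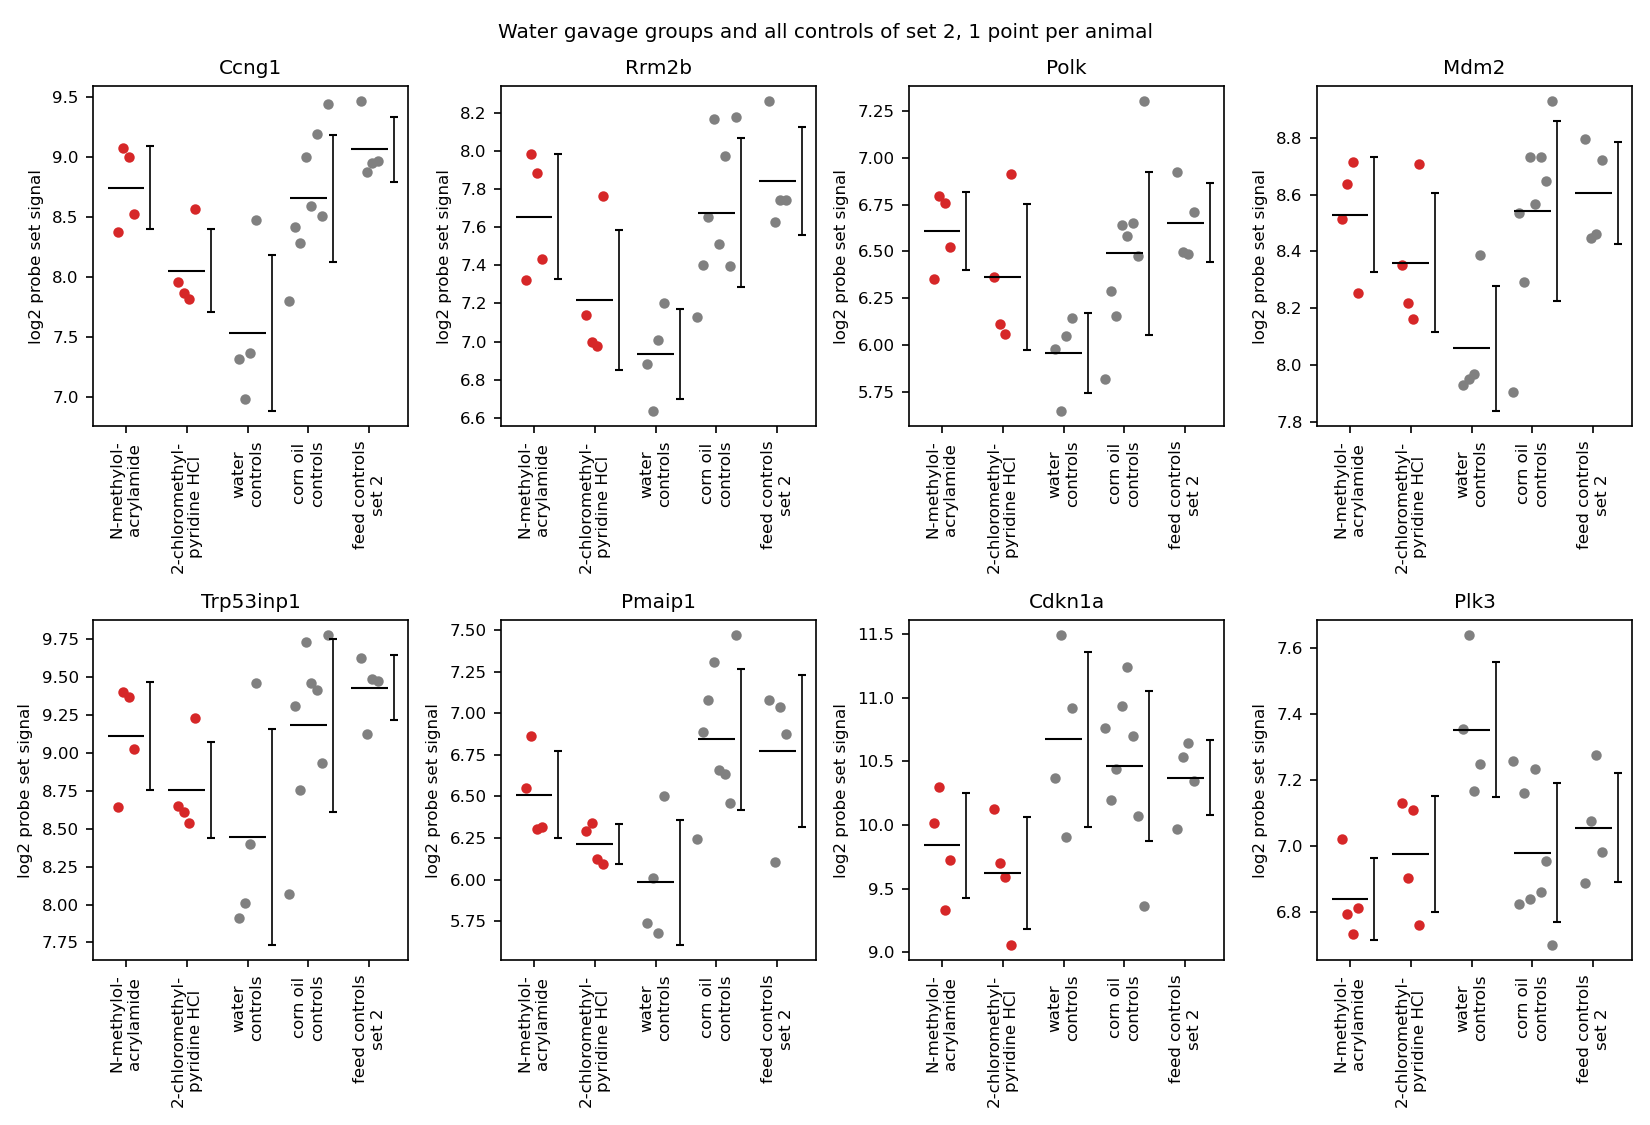
Log2 signal of 8 p53 target genes in the 2 water gavage groups (red) and in the water, corn oil and feed controls of set 2 (grey), 1 point per animal, with lines at group means and bars of 1 SD. For Ccng1, Rrm2b, Polk, Mdm2 and Trp53inp1 the N-methylolacrylamide animals lie above the water controls' mean and inside the range of the corn oil controls.

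The untreated groups differed among themselves in many of these genes. Water controls minus feed controls of set 2 had 2 members higher and 8 lower, where 37% of all genes were called (16.4% higher and 20.7% lower). Ccng1 was lower by 1.53 on the log2 scale in water controls, with 7.32, 6.98, 7.37 and 8.48 against 8.88 to 9.46 in feed controls (change -1.53 ± 0.25 SE, adjusted p = 4.72e-05). Trp53inp1 (-0.98), Rrm2b (-0.91), Pmaip1 (-0.79), Polk (-0.70), Fas (-0.61), Mdm2 (-0.55) and Apaf1 (-0.41) were lower too. Phlda3 (0.45) and Bbc3 (0.37) were higher. Corn oil controls minus feed controls of set 2 had only Ppm1d called (-0.36, adjusted p = 0.0255), where 4.41% of all genes were called (2.08% higher and 2.32% lower). Feed controls of set 2 minus those of set 1 had 8 members higher and 5 lower, where 46.9% of all genes were called (33.1% higher and 13.9% lower). Pmaip1 (-1.20), Trp53inp1 (-0.89), Rrm2b (-0.85), Polk (-0.83) and Ccng1 (-0.81) were lower in set 2. Plk3 (0.84), Sesn2 (0.80), Aen (0.59), Bbc3 (0.58), Xpc (0.44), Perp (0.44), Ppm1d (0.40) and Ei24 (0.29) were higher. RNA integrity numbers in the labels, given for some animals, ran from 7.8 to 8.1 in feed controls of set 2, from 8.3 to 8.9 in feed controls of set 1 and from 7.9 to 8.2 in water controls. Set and RNA integrity cannot be told apart in these groups.

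Mdm2 was called for no chemical other than N-methylolacrylamide. In set 1 it had 8.99, 9.02 and 8.91 for 1,5-naphthalenediamine, 8.86, 8.71 and 8.87 for N-(1-naphthyl)ethylenediamine dihydrochloride and 8.88, 8.93 and 8.81 for pentachloronitrobenzene, against 8.68, 8.79 and 8.91 in feed controls. It had 8.85, 8.95 and 8.86 for 2,3-benzofuran, against 8.92, 8.99 and 8.85 in corn oil controls of set 1. All 4 of these groups overlapped their controls. In set 2 benzene lungs had 8.81, 8.54, 8.61 and 8.12, coumarin lungs 8.58, 8.40, 8.77 and 8.54, and 1,2-dibromoethane lungs 8.68, 8.71, 8.36 and 8.61, against 7.91 to 8.93 with a median of 8.61 in corn oil controls. Every one of these 12 treated animals lay within the control range. Lungs of mice given 2-chloromethylpyridine hydrochloride had 8.35, 8.22, 8.16 and 8.71, and 1 of the 4 lay above all water controls. Mice fed 2,2-bis(bromomethyl)-1,3-propanediol had 8.41, 8.45, 8.54 and 8.69, and mice fed 4-nitroanthranilic acid 8.50, 8.68, 8.50 and 8.69, against 8.80, 8.45, 8.46 and 8.72 in feed controls. Mice fed diazinon had 8.23, 8.28, 8.42 and 8.47, and 3 of the 4 lay below all feed controls. Mice fed malathion had 8.34, 8.68, 8.68 and 8.34, and 2 of the 4 lay below all feed controls. Ppm1d, the phosphatase Wip1 that reverses damage signalling, changed by between -0.09 and 0.27 and was called for no chemical.

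No member of the apoptosis and death receptor group was called for any chemical. Of its 8 tested genes, Pmaip1 (Noxa, 0.53, adjusted p = 0.0547), Ei24 (-0.26, adjusted p = 0.0562) and Apaf1 (0.34, adjusted p = 0.0597) came nearest, all for N-methylolacrylamide against water controls. Rps27l, a ribosomal protein-like target, changed by 0.40 for 2,3-benzofuran (adjusted p = 0.0737), and Aen, an apoptosis-enhancing nuclease, by 0.51 (adjusted p = 0.0748). The BH3-only genes were not called, with Pmaip1 between -0.55 and 0.53 over the 13 chemicals and Bbc3 (Puma) between -0.28 and 0.53. Perp, a membrane protein of desmosomes and cell death, changed by 0.43 for coumarin (adjusted p = 0.0635). The death receptor gene Fas ranged from -0.35 to 0.16 and the apoptosome gene Apaf1 from -0.23 to 0.34. The damage recognition genes Ddb2 and Xpc were not called either, and Ddb2 came nearest with 0.40 for malathion (adjusted p = 0.0508). Among the remaining cell cycle members, Btg2, Gadd45a, Plk2 and Ckap2 were called for no chemical, with lowest adjusted p from 0.234 to 0.436.

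Few genes changed in benzene lungs, and 3 of the 12 called were members, all of the group of kinase signalling, autophagy and stress genes. Phlda3 encodes a pleckstrin-homology protein that competes with the kinase Akt for membrane lipids. It had 9.19, 9.24, 9.27 and 9.71 in benzene lungs, against 8.39 to 9.04 with a median of 8.67 in corn oil controls. All 4 treated animals lay above all 8 controls. Phlda3 rose 1.61-fold (log2 change 0.69 ± 0.12 SE, adjusted p = 0.00206). Zmat3, also known as Wig1, encodes a zinc finger protein that binds RNA. It had 8.23, 7.91, 8.22 and 8.26 in benzene lungs, against 7.44 to 7.85 with a median of 7.65 in corn oil controls, again with no overlap. Zmat3 rose 1.40-fold (log2 change 0.49 ± 0.11 SE, adjusted p = 0.0381).

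Ddit4l, also known as Redd2, encodes an inhibitor of mTOR signalling and was called higher for 3 chemicals given in corn oil, which share their 8 controls. Benzene lungs had 6.68, 6.95, 6.60 and 6.67, 1,2-dibromoethane lungs 6.61, 6.45, 6.92 and 6.57, and coumarin lungs 6.28, 6.25, 6.70 and 7.03. Corn oil controls ran from 5.58 to 6.63 with a median of 6.17, so only the highest control reached into the treated range for benzene. Ddit4l rose 1.52-fold for benzene (log2 change 0.61 ± 0.12 SE, adjusted p = 0.0211), 1.43-fold for 1,2-dibromoethane (0.52 ± 0.12, adjusted p = 0.00969) and 1.36-fold for coumarin (0.45 ± 0.12, adjusted p = 0.0233). Against the controls of all 3 vehicles of set 2 none of the 3 was called, with 0.41 for benzene (adjusted p = 0.114), 0.33 for 1,2-dibromoethane (adjusted p = 0.0594) and 0.25 for coumarin (adjusted p = 0.217), and none was called in a fit with only the arrays compared. In set 1 Ddit4l had 6.81, 6.53 and 6.67 for 1,5-naphthalenediamine, against 6.09, 6.17 and 6.06 in feed controls. It had 6.62, 6.55 and 6.55 for 2,3-benzofuran, against 6.04, 6.09 and 6.26 in corn oil controls of set 1. Neither group overlapped its controls, and the changes of 0.56 and 0.44 had adjusted p of 0.0917 and 0.109. A second Ddit4l probe set changed by 0.62 for 1,5-naphthalenediamine (adjusted p = 0.034), by 0.60 for 2,3-benzofuran (adjusted p = 0.0254), by 0.52 for coumarin (adjusted p = 0.00586), by 0.40 for 1,2-dibromoethane (adjusted p = 0.0448) and by 0.49 for benzene (adjusted p = 0.168). Leaving out 1 of the 12 animals ended the Ddit4l call in 5 of 12 cases for benzene, in 4 of 12 for coumarin (0.29, adjusted p = 0.226 without the animal at 7.03) and, for 1,2-dibromoethane, in 1 (0.43, adjusted p = 0.0578). That 1,2-dibromoethane animal, at 6.92, had the lowest RNA integrity number in the labels, 7.1, and the largest difference between 3 prime and 5 prime control probe sets, 0.989, where the other 3 animals of its group lay between 0.135 and 0.254. Of 7 ciliated cell markers, 3 were called higher for coumarin (3.26% of all genes higher) and 3 for 1,2-dibromoethane (2.08% of all genes higher). Their mean level ran from 8.64 to 9.06 in coumarin lungs, from 8.69 to 9.08 in 1,2-dibromoethane lungs and from 8.06 to 8.73 in corn oil controls, and their part in the Ddit4l result was not tested.

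Dram1, a lysosomal protein of autophagy, was called for 1,2-dibromoethane and for no other chemical. It had 11.34, 10.91, 11.27 and 11.48 in treated lungs, against 11.33 to 11.64 with a median of 11.51 in corn oil controls. Of the 4 animals, 2 lay below all controls. Dram1 fell by 0.25 on the log2 scale (SE 0.07, adjusted p = 0.0243), and without the animal at 10.91 the change was -0.14 (adjusted p = 0.274). The call was also lost without 1 of the controls (adjusted p = 0.0518). Of 5 alveolar macrophage markers, 2 were called lower, where 2.5% of all genes were. Their mean levels ran from 8.56 to 9.65 in 1,2-dibromoethane lungs and from 9.56 to 9.80 in corn oil controls, and their part in the Dram1 result was not tested. The sestrins, stress-induced inhibitors of mTOR signalling, were called for no chemical. Sesn2 ranged from -0.24 to 0.48 and Sesn1 from -0.12 to 0.34.

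The other changes in benzene lungs did not pass the test over all genes. Unadjusted p lay under 0.05 for 12 of 29 members, where it did so for 9.17% of all genes. Among these, Ccng1 changed by 0.55, Psrc1 by 0.54, Aen by 0.40, Ppm1d by 0.27, Ei24 by 0.25, Rps27l by 0.25 and Apaf1 by 0.24, while Btg2 changed by -0.42 and Fas by -0.32 (adjusted p from 0.425 to 0.536). Without the animal at 9.71 the Phlda3 change was 0.57 (adjusted p = 0.0896), the Zmat3 call ended without any 1 of 8 of the 12 animals (adjusted p from 0.06 to 0.308), and 0 genes in all were called in a fit with only the arrays of these 2 groups. The 13 cell type lists had 0 genes called for benzene, where only 0.0942% of all genes were called. With so few calls, a count of 0 does not show that these markers were unchanged. The mean level over 6 heart muscle markers ran from 6.80 to 9.55 in benzene lungs and from 8.39 to 10.26 in corn oil controls, and their part in the result was not tested.

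**Figure D4:**
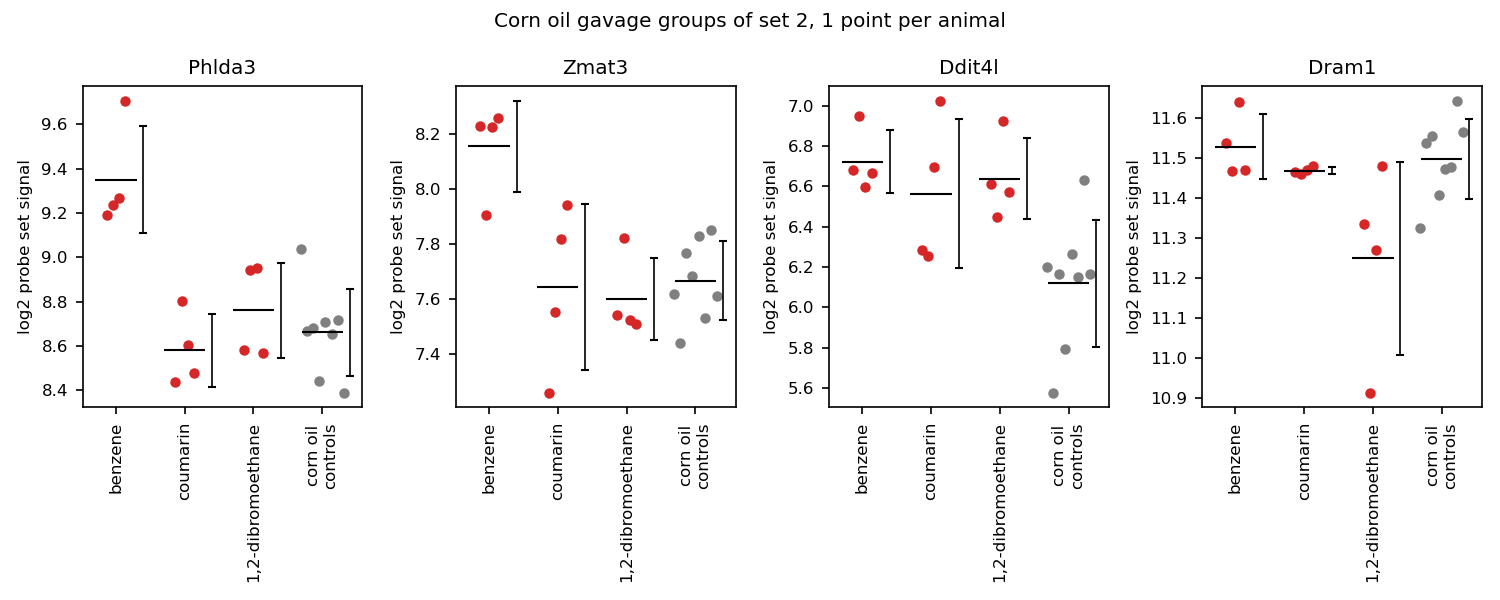
Log2 signal of Phlda3, Zmat3, Ddit4l and Dram1 in lungs of mice given benzene, coumarin or 1,2-dibromoethane (red) and in corn oil controls of set 2 (grey), 1 point per animal, with lines at group means and bars of 1 SD. The 4 benzene animals lie above all 8 controls for Phlda3 and Zmat3.

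Tests between chemicals given in the same vehicle showed where benzene differed. Benzene minus coumarin had 3 members higher, where 4.77% of all genes were called (2.5% higher and 2.26% lower). Phlda3 averaged 9.35 ± 0.24 in benzene lungs and 8.58 ± 0.16 in coumarin lungs (SD, n = 4 each), a difference of 0.77 ± 0.14 (SE, adjusted p = 0.000278). Aen (0.55, adjusted p = 0.0233) and Zmat3 (0.51, adjusted p = 0.0102) were higher as well, and the Aen call was lost with the mean over its probe sets (0.34, adjusted p = 0.0532). Benzene minus 1,2-dibromoethane had 5 members higher and 1 lower, where 10.8% of all genes were called (8.41% higher and 2.43% lower). Phlda3 (0.59), Zmat3 (0.55), Xpc (0.40), Ei24 (0.39) and Dram1 (0.28) were higher, and Btg2, an antiproliferative gene of the immediate early response, was lower (-0.69, adjusted p = 0.0222). The Xpc call was lost in 3 of 5 alternatives (adjusted p up to 0.0979), that of Dram1 with quantile normalization (0.23, adjusted p = 0.0614), and that of Btg2 with the mean over its probe sets (-0.22, adjusted p = 0.350). Ddit4l did not pass in either test, with differences of 0.16 (95% interval -0.13 to 0.45) from coumarin and 0.08 (-0.20 to 0.37) from 1,2-dibromoethane. Coumarin minus 1,2-dibromoethane had only Perp called (0.58, adjusted p = 0.0493), where 1.81% of all genes were called (1.04% higher and 0.777% lower). Doses in mg/kg differed between the 3 chemicals.

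1,5-Naphthalenediamine and N-(1-naphthyl)ethylenediamine dihydrochloride both carry amine groups on a naphthalene ring system, directly in the diamine and through a side chain in the other, and both were fed at 2000 ppm in set 1. Ddit4l averaged 6.67 ± 0.14 in 1,5-naphthalenediamine lungs and 5.96 ± 0.07 in N-(1-naphthyl)ethylenediamine lungs (SD, n = 3 each). The difference of 0.71 ± 0.17 (SE, adjusted p = 0.00749) was the only member called, where 1.96% of all genes were called (1.74% higher and 0.212% lower). Psrc1 differed by 1.00 (95% interval 0.38 to 1.62) with an adjusted p of 0.0803. Against pentachloronitrobenzene, 0 members were called for 1,5-naphthalenediamine where 1.07% of all genes were (0.919% higher and 0.149% lower). An unadjusted p under 0.05 was found for 9 members and for 8.10% of all genes. 2,2-Bis(bromomethyl)-1,3-propanediol minus the mean of the 3 negative feed chemicals of set 2 had 0% of all genes called. There 2 members and 0.848% of all genes had an unadjusted p under 0.05.

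Across tumour class, with the chemical as the unit (7 positive against 6 negative), 0% of all genes were called, and 2 members and 865 genes had an unadjusted p under 0.05. Ddit4l had the smallest p among the members. Its change averaged 0.35 over positive chemicals and -0.03 over negative chemicals, a difference of 0.38 ± 0.12 (SE, unadjusted p = 0.00586, adjusted p = 0.715). Among positive chemicals Ddit4l changed by 0.61 for benzene, 0.56 for 1,5-naphthalenediamine, 0.52 for 1,2-dibromoethane, 0.45 for coumarin, 0.44 for 2,3-benzofuran, 0.14 for 2,2-bis(bromomethyl)-1,3-propanediol and -0.23 for N-methylolacrylamide. Among negative chemicals it ran from -0.15 to 0.12, with malathion highest. Rps27l differed by 0.19 (unadjusted p = 0.0483). Some of these chemicals share controls, so their changes are not independent. All 4 corn oil chemicals were positive, so class and the corn oil vehicle cannot be told apart across these chemicals. Ddit4l had a median of 6.17 in corn oil controls of set 2 and of 6.41 in feed controls of set 2. Among the feed chemicals alone, it changed by 0.56 and 0.14 for the 2 positive chemicals and by between -0.15 and 0.12 for the negative ones.

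Within groups, 5 of the members moved together from animal to animal. Deviations from group means were compared over 70 arrays in 18 groups, as a description. The median r of the 406 pairs was 0.04. Ccng1, Rrm2b, Polk, Mdm2 and Trp53inp1 formed the 10 pairs with the highest r, from 0.72 to 0.83. The highest were Ccng1 with Rrm2b (0.83), Mdm2 with Trp53inp1 (0.82), Ccng1 with Polk (0.81), Ccng1 with Trp53inp1 (0.80) and Ccng1 with Mdm2 (0.79). The same 5 genes are the ones called higher for N-methylolacrylamide, and all 5 were lower in water than in feed controls. The members with the highest mean r with the other members were Ppm1d (0.16), Zmat3 (0.14), Pmaip1 (0.10), Psrc1 (0.10) and Rps27l (0.09).

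The 5 genes also followed the main axis of the arrays. The first principal axis of the deviations of all 12735 genes held 27.9% of their variance. Along it r was 0.92 for Ccng1, 0.90 for Rrm2b, 0.87 for Polk, 0.84 for Mdm2 and 0.80 for Trp53inp1. Of all genes, 41.0% had an r above 0.5 in size, so these members share the axis with much of the array. Ei24 (-0.65), Phlda3 (-0.61) and Plk3 (-0.58) ran the opposite way, while Cdkn1a had -0.35, Zmat3 -0.09, Psrc1 -0.09 and Ddit4l 0.05. The axis had an r of 0.03 with the difference between 3 prime and 5 prime control probe sets.

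**Figure D5:**
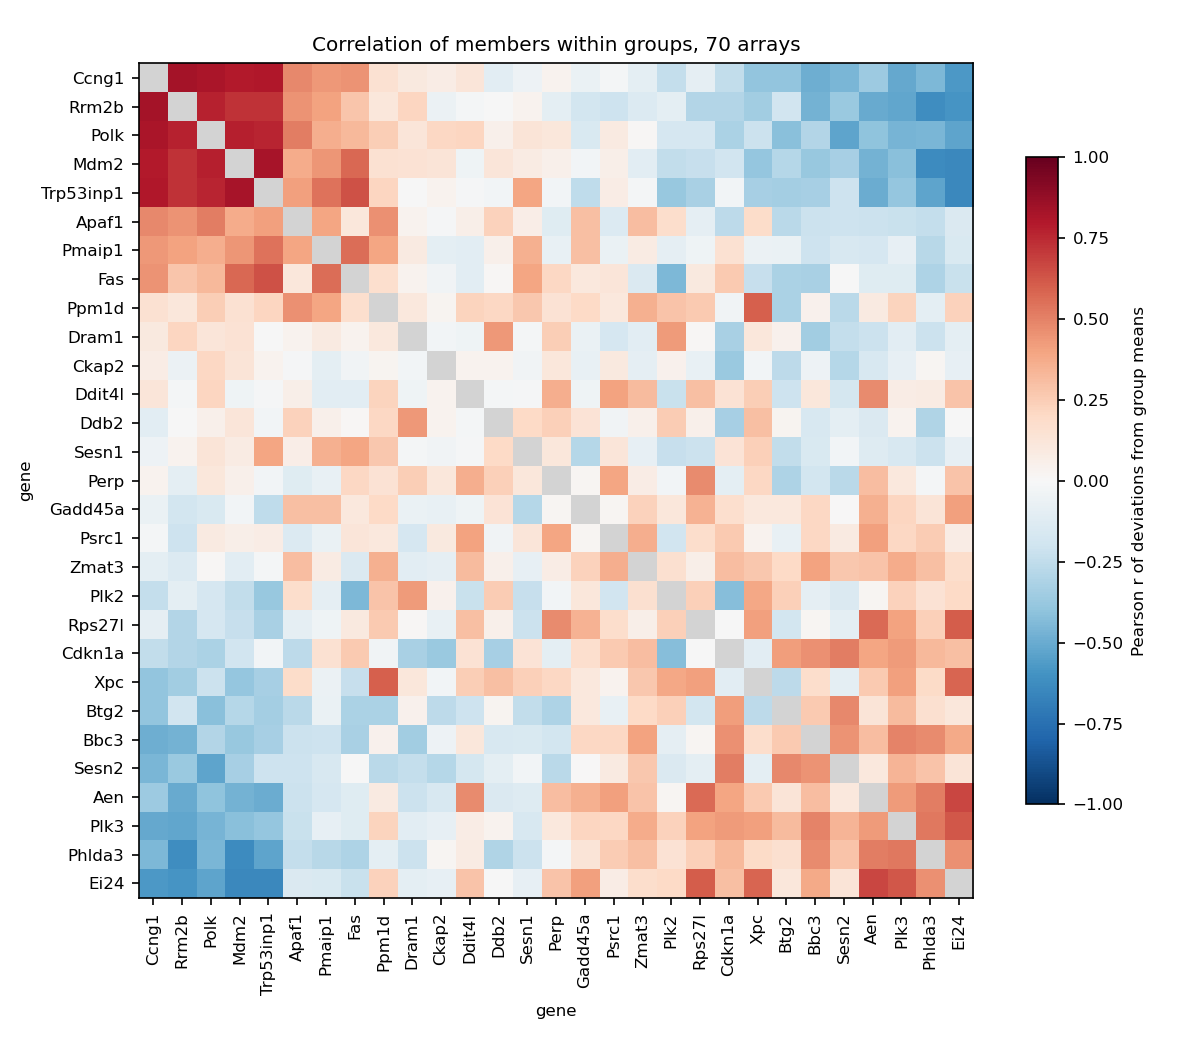
Pearson r between p53 target genes (rows and columns, 29 genes ordered by their r with the first axis of all genes) over the deviations from group means of 70 arrays. Ccng1, Rrm2b, Polk, Mdm2 and Trp53inp1 form the red block at the top left, with r from 0.72 to 0.83.

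Other genes of the pathway were listed from textbook knowledge. Of 28 tested further p53 targets, Ephx1, the microsomal epoxide hydrolase that also answers to xenobiotics, was called higher for 6 chemicals. It changed by 0.74 for 1,5-naphthalenediamine, 0.66 for benzene, 0.46 for 2,3-benzofuran, 0.46 for 1,2-dibromoethane, 0.45 for coumarin and 0.35 for malathion. The phosphatase gene Dusp1 was lower for coumarin (-0.71, adjusted p = 0.018), and for 1,2-dibromoethane (-0.62, adjusted p = 0.0475), where Cyfip2 (0.54) and Trp73 (0.42) were higher. For N-methylolacrylamide, Ercc5 was higher (0.51) and Rprm lower (-0.47), and for malathion Tigar was lower (-0.37). Of 18 tested p53 regulators and DNA damage sensors, 6 were called higher for N-methylolacrylamide and 0 lower, where 12.7% of all genes were higher and 9.07% lower, among them Nbn (1.09) and Rad50 (0.56) of the complex that senses DNA breaks. Both were lower in water than in feed controls as well, with Nbn at -1.17 and Rad50 at -0.58. Usp7 was higher for 1,2-dibromoethane (0.31), and Trp53bp1 was lower for malathion (-0.50). Of 17 tested cell cycle genes that p53 represses through p21 and the DREAM complex, Top2a (0.95) and Mki67 (0.78) were higher for N-methylolacrylamide (12.7% of all genes higher), and Mki67 was lower for 2,3-benzofuran (-1.04). The list median was 0.21 for N-methylolacrylamide and 0.21 for benzene, where all genes had -0.10 and 0.05.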

How the data were processed

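The deposited table holds log2 probe set signals for 70 Affymetrix mouse genome arrays. Per the labels, total RNA of the right lung lobe came from Trizol with RNeasy clean-up and carried biotin. Values between 2.47 and 14.53 and array medians between 5.41 and 5.52 put the deposited numbers on a log2 scale. Which summarization and normalization the authors used is not given here. The number of arrays limits the precision.

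Probe sets with 1 gene symbol in the platform table (34945 of 45101) were used, with symbols updated through RefSeq, and probe sets with several symbols (932) or none (9160) and 64 control probe sets were left out. Genes above the 30th percentile of the gene means (4.98 on the log2 scale) were tested. One mean for each of 18 groups was fitted to the 70 arrays in limma 3.58.1 (lmFit, then eBayes), run under R 4.3.3. Benjamini-Hochberg adjustment ran over all genes tested in a comparison, and an adjusted p under 0.05 was a call. Errors of changes are standard errors and intervals are 95% intervals. Adjusted p of further probe sets of a gene are over all probe sets. Each animal gave 1 array, and the number before the hyphen of its identifier defined the set, whose meaning is unknown. Class was tested with limma over 13 chemicals. The fit was tested on simulated data. Promoters were read with Python 3.11.15 and figures drawn with matplotlib 3.10.9.

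Values per animal are given for members called in a chemical's comparison with its controls, and for Cdkn1a and Mdm2 in all 13 of these. Members called only between chemicals or between controls are given as differences. From other lists only called genes are named, at most 4 per list and comparison by adjusted p. Likeness between members is Pearson's r of deviations from group means. Promoters are shown for the called members of the chemical with most members called. The members, lists and rules were chosen with earlier results of these data known. Alternatives varied the filter, the probe set, the normalization, the arrays fitted, the variance model, array weights, covariates, the controls and single animals.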

Additional observations from a re-analysis of the deposited data

Results flagged for a closer look

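In 28 sets of 1 called member in 1 group of 4 to 10 animals, 3 animals lay farther from the rest of their group than Dixon's 95% limit allows. Chance flags about 1 in 20 groups. For Phlda3, 1 benzene animal had 9.71, with the nearest of the other 3 at 9.27. For Zmat3, a different benzene animal had 7.91, with the nearest at 8.22. For Mdm2, 1 water control had 8.39, with the nearest of the other 3 at 7.97.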

How the results depend on the processing

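Counts of members called were recomputed under each alternative, and the cause of a difference was not tested. Numbers in brackets after a count are all genes called in the same fits, of 12735 tested unless another number is named. Where many genes were called, a higher count of members is not particular to them. For 1,5-naphthalenediamine the count of 1 (153) became 2 without a filter (180 of 18193), after a second quantile normalization (158) or with the 3 prime minus 5 prime difference as a covariate (135). It became 0 with the 50th percentile filter (123 of 9096), 5 with only the arrays compared (272) and 6 with array weights (1041). For 1,2-dibromoethane the count of 2 (584) became 1 with the 50th percentile filter (506 of 9096) or quantile normalization (631). It became 0 with only the arrays compared (12) or with array weights (600), and 4 against the controls of all 3 vehicles (1162). For coumarin the count of 1 (596) became 0 with the 50th percentile filter (441 of 9096), with only the arrays compared (143) or against all 3 vehicles (574). It became 2 with quantile normalization (704) or array weights (1120). For benzene the count of 3 (12) became 0 with only the arrays compared (0) and 8 with array weights (553). For N-methylolacrylamide the count of 7 (2777) became 4 with only the arrays compared (1448), 12 with array weights (6212) and 0 against all 3 vehicles (6). For malathion the count of 1 (339) became 2 with quantile normalization (453), only the arrays compared (433) or array weights (2557), and 3 against all 3 vehicles (401). Array weights gave 9 (3272) for 2,2-bis(bromomethyl)-1,3-propanediol, 2 (1597) for 2,3-benzofuran, 3 (853) for N-(1-naphthyl)ethylenediamine dihydrochloride and 3 (429) for diazinon, where the count was 0. For 2,2-bis(bromomethyl)-1,3-propanediol quantile normalization gave 1 (5) and all 3 vehicles gave 1 (16), and for 2,3-benzofuran the mean over probe sets gave 1 (505 of 11830). Between chemicals, 1,5-naphthalenediamine minus N-(1-naphthyl)ethylenediamine had 2 without a filter (260 of 18193) and 0 with the 50th percentile (219 of 9096). 1,5-Naphthalenediamine minus pentachloronitrobenzene had 1 without a filter (156 of 18193) or with the mean over probe sets (122 of 11830). Coumarin minus 1,2-dibromoethane had 0 without a filter (242 of 18193) or with the filter taken over all probe sets (225 of 14590). Corn oil minus feed controls had 0 with the mean over probe sets (581 of 11830). Leaving out 1 animal gave 1 to 10 called members (416 to 4203) for N-methylolacrylamide, 0 to 3 (4 to 12) for benzene and 1 to 4 (358 to 810) for 1,2-dibromoethane. It gave 0 to 2 (443 to 615) for coumarin, 0 to 2 (46 to 1369) for 2,3-benzofuran and 1 to 2 (86 to 307) for malathion. For 2,2-bis(bromomethyl)-1,3-propanediol it gave 0 to 1 (0 to 8), and for 1,5-naphthalenediamine 0 to 0 (76 to 123). Against the controls of all 3 vehicles, chosen after the data were seen, signs turned for Ccng1 under 2,2-bis(bromomethyl)-1,3-propanediol (0.0653), 2-chloromethylpyridine hydrochloride (-0.36) and diazinon (0.12), for Mdm2 (-0.042) and Polk (-0.0043) under 2-chloromethylpyridine hydrochloride, and for Pmaip1 under N-methylolacrylamide (-0.0241). The 3 Ddit4l calls in corn oil groups and those of Phlda3, Zmat3 and Dram1 were lost with only the arrays compared. No paired analysis was possible because the groups compared share no replicate numbers.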
